A study of Rattus with 27 samples.

Results

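The spleens of 3 rats labelled model were compared with the spleens of 3 sham-operated rats, 6 h after surgery. The 6 arrays were chosen by their titles (model 1, 2 and 3, and sham 3, 4 and 5, in spleen) out of 27 arrays in the series. The series covers brain, white blood cells and spleen of 9 Sprague Dawley rats, with 3 rats in each of 3 groups, and measures RNA on Affymetrix rat Gene arrays. Sham rats had anesthesia and exposure of the vessels. The other groups underwent MCAO (middle cerebral artery occlusion, a surgical model of ischaemic stroke), the rats labelled vehicle included. Besides sham, the protocol lists vehicle controls and rats that received 25 mg/kg of YJ. The titles instead read model and vehicle, and the labels do not settle which of these 2 names belongs to the YJ rats. The groups are therefore called model-labelled and vehicle-labelled, and neither is called treated. Age and sex of the rats are not given in the sources used here. Spleens were homogenized whole, so fewer cells of a type and less RNA per cell cannot be told apart.

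The spleen filters blood through the macrophages of its red pulp and holds B and T lymphocytes in its white pulp, and in rodents it also makes red blood cells. Experimental stroke is known to act on it through sympathetic nerves and adrenal hormones. Cells that meet misfolded protein raise chaperones by way of separate programmes, with heat shock factors serving the cytosol and nucleus and the unfolded protein response serving the endoplasmic reticulum (ER). Dividing cells carry their own signature of genes for DNA replication and mitosis.

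The values are log2 intensities, so a difference of 1 is a change of 2-fold. Of 14506 genes tested, 6 passed an adjusted p of 0.05 in the model-labelled spleens against sham, which is 0.0414% of genes, with 5 higher (0.0345%) and 1 lower (0.00689%). An unadjusted p under 0.05 was reached by 1378 genes (9.50%), of which 980 were higher (6.76%) and 398 lower (2.74%). The 3 model-labelled arrays did not overlap the 3 sham arrays and lay above them for 13.4% of genes, and below them for 3.96%. The median difference over all genes was 0.067, and 66.0% of genes were higher. The split at an unadjusted p under 0.05 was 744 higher and 625 lower after quantile normalization, and 666 higher and 613 lower after median centring. Differences of at least 1 in size were found for 90 genes, of which 22 were higher and 68 lower.

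Some markers of spleen cells were higher in sham spleen than in white blood cells and brain, and others were not. Levels of Cd79b, a B cell receptor chain, were 10.63 in sham spleen, 9.75 in white blood cells and 5.84 in brain. Vcam1, which red pulp macrophages and splenic stroma express, was at 10.56 in sham spleen, 4.32 in white blood cells and 7.11 in brain. Cd5l, a macrophage gene, was at 7.85 in sham spleen, 3.67 in white blood cells and 3.35 in brain. Slc40a1, of the red pulp macrophage list, was at 10.61 in sham spleen and 11.43 in white blood cells. The T cell genes Cd3e and Cd3g were at 8.38 and 8.03 in sham spleen and 9.62 and 8.70 in white blood cells. The median over genes was 5.67, 5.67 and 5.69 in the sham spleens, 5.66, 5.82 and 5.68 in the model-labelled spleens and 5.75, 5.62 and 5.65 in the vehicle-labelled spleens. Array pairs correlated across genes with r between 0.975 and 0.993 within groups and between 0.977 and 0.993 between groups. The labels give no date or batch for the arrays, so that a batch which coincides with a group cannot be told apart from it.

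The genes that rose were chaperones, their partners and a zinc transporter. Serpinh1, which encodes the collagen chaperone Hsp47, was at 7.28, 7.98 and 7.74 in the sham spleens and at 8.99, 8.96 and 9.52 in the model-labelled spleens. The lowest model-labelled spleen lay well above the highest sham spleen. The means were 7.67 ± 0.36 and 9.16 ± 0.32 (SD, n = 3 each), a rise of 1.49 with a standard error of 0.22, or 2.81-fold (limma, adjusted p = 0.0417). Stip1, the adaptor that links Hsp70 to Hsp90, was at 8.81, 8.76 and 8.83 in sham and at 9.90, 9.90 and 10.75 in model-labelled spleens. Its sham spleens were tightly grouped and model-labelled rat 3 was the highest of all. Stip1 rose by 1.38 with a standard error of 0.20, or 2.61-fold (limma, adjusted p = 0.0417). Fkbp4, an Hsp90 co-chaperone of steroid receptors, was at 7.88, 7.67 and 7.93 in sham and at 8.88, 8.96 and 9.64 in model-labelled spleens. Again the groups were apart and model-labelled rat 3 was the highest, with a rise of 1.33 (standard error 0.19, 2.52-fold, limma adjusted p = 0.0417).

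Hspa5, the main Hsp70 chaperone of the ER (BiP), was at 10.67, 10.73 and 10.71 in sham spleens and at 11.50, 11.65 and 11.68 in model-labelled spleens. The 3 values of each group lay close together and far from the other group (SD of 0.031 in sham and 0.096 in model-labelled). The rise was 0.91 with a standard error of 0.12, or 1.87-fold (limma, adjusted p = 0.0391). Slc39a14, a plasma membrane importer of zinc and iron that inflammation is known to induce in liver, was at 5.96, 6.12 and 5.97 in sham and at 6.71, 7.12 and 7.05 in model-labelled spleens. It rose by 0.94 (standard error 0.14, 1.92-fold, limma adjusted p = 0.0417), and no value overlapped. The gene that fell was Cenpu, a protein of the inner kinetochore at which chromosomes attach to the spindle. Its levels were 4.84, 5.27 and 5.24 in sham and 3.75, 3.71 and 3.64 in model-labelled spleens. Cenpu fell by 1.42 on the log2 scale with a standard error of 0.17 (limma, adjusted p = 0.0343), and no value overlapped. Its levels were low, below the median over the genes tested in each sham and model-labelled spleen. Whether the probe was above background in the model-labelled spleens was not tested. Near background a log2 difference can understate a change.

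**Figure D1:**
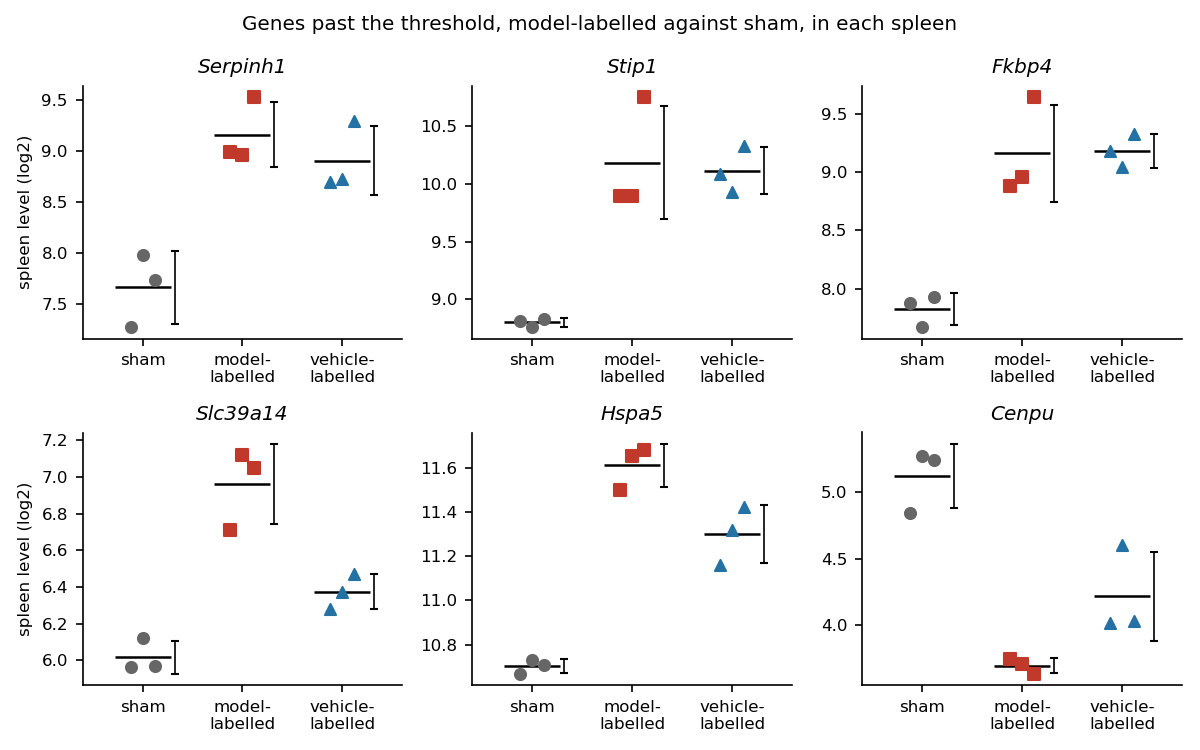
Level (log2) of the 6 genes past the threshold in each spleen of the sham, model-labelled and vehicle-labelled groups; points are single rats, the horizontal line is the group mean and the bar beside it the SD (n = 3). Serpinh1, Stip1, Fkbp4, Slc39a14 and Hspa5 lie higher in each model-labelled spleen than in each sham spleen, and Cenpu lies lower, at 3.64 to 3.75 against 4.84 to 5.27.

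The number of calls moved with single arrays. Leaving out model-labelled rat 1, model-labelled rat 3, sham rat 4, sham rat 5 or vehicle-labelled rat 2 left 0 calls in limma, with 1312, 756, 995, 753 and 1313 genes at an unadjusted p under 0.05. Leaving out model-labelled rat 2 gave 1 call (Ass1), sham rat 3 gave 4 (Cenpu, Hmmr, Mcpt10 and Retnlg), vehicle-labelled rat 4 gave 12 and vehicle-labelled rat 5 gave 21.

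Chaperones of the cytosol and mitochondria were higher in most members. Of 20 heat shock genes measured, 2 passed the adjusted threshold, 17 reached an unadjusted p under 0.05 in the higher direction and 0 in the lower, and 18 had 3 model-labelled values above all sham values, against 6.76% and 13.4% of all genes. Their median difference was 0.75, against 0.067 over all genes. Because this and the other lists were chosen with earlier results of these data known, their counts describe the members and are not independent support. The members besides Stip1 and Fkbp4 did not pass the adjusted threshold. Hsp90ab1, the constitutive cytosolic Hsp90, had levels of 11.22, 11.05 and 11.06 in sham and 11.81, 11.85 and 12.24 in model-labelled spleens, a difference of 0.86 (limma adjusted p = 0.0837). Its inducible counterpart Hsp90aa1 differed by 0.81, with sham values of 10.31, 10.37 and 10.41 and model-labelled values of 10.99, 10.99 and 11.54. Both Hsp90 genes were apart between the groups and highest in model-labelled rat 3.

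Among Hsp70 partners, the difference was 1.41 for Hsph1, a nucleotide exchange factor, 1.07 for the J-domain protein Dnaja1 and 0.57 for Hspa8, the constitutive Hsp70. Hspb1, a small heat shock protein, had the widest sham spread, with 7.57, 8.13 and 6.45, and stood at 8.78, 8.96 and 9.34 in model-labelled spleens. The mitochondrial chaperonin pair Hspd1 and Hspe1 differed by 0.72 and 0.43. The transcription factor Hsf1, which drives the response, differed by 0.41, and its relative Hsf2 by 0.073 with overlapping groups. Dnajb1, a J-domain protein often used as a marker of Hsf1 activity, had levels of 8.08, 8.36 and 7.83 in sham and 8.12, 8.40 and 9.30 in model-labelled spleens. That difference of 0.52 rested on model-labelled rat 3, and the other two were within the range of sham or just above it. The mean level of the 20 genes, relative to the sham mean, was 0.02, 0.07 and -0.09 in sham, 0.55, 0.68 and 1.22 in model-labelled and 0.84, 0.68 and 1.04 in vehicle-labelled spleens. Leaving out each array in turn kept the median between 0.60 and 0.87, and between 14 and 19 members at an unadjusted p under 0.05.

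ER chaperones and other genes of the unfolded protein response were higher too. Of 18 genes measured, 1 passed (Hspa5) and 17 reached an unadjusted p under 0.05 in the higher direction, against 6.76% of all genes. Model-labelled values lay above all sham values for 17, against 13.4% of all genes. The median difference was 0.63, and it stayed between 0.57 and 0.70 when each array was left out. Hyou1, an Hsp110-type chaperone of the ER, was at 7.64, 7.68 and 7.68 in sham and 8.43, 8.78 and 8.92 in model-labelled spleens, a difference of 1.04 (limma adjusted p = 0.069). Pdia4, a disulfide isomerase, was at 8.5, 8.34 and 8.56 in sham and 9.27, 9.62 and 9.67 in model-labelled spleens, a difference of 1.05 (limma adjusted p = 0.0837). For Hyou1 and Pdia4 no sham value reached any model-labelled value.

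The ER list reached beyond chaperones. The ER-associated degradation genes Herpud1 and Sel1l differed by 0.89 and 0.65, the transcription factor Xbp1 by 0.64 and the lectin chaperones Calr and Canx by 0.51 and 0.33. Ddit3 (Chop), which is known for ER stress that goes on to cell death, was the exception, with 6.36, 6.28 and 6.44 in sham and 6.53, 6.06 and 7.08 in model-labelled spleens. Its difference of 0.20 was smaller than its spread, and its groups overlapped. In the list of integrated stress response genes, of 14 measured, 0 passed and the median was 0.045 (-0.0098 after quantile normalization). At an unadjusted p under 0.05, 1 was higher and 1 lower, against 6.76% and 2.74% of all genes. The member higher was Ddit4, at 0.80, and the member lower was Asns, the asparagine synthetase, with 8.59, 8.69 and 8.69 in sham and 7.27, 8.41 and 7.26 in model-labelled spleens.

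**Figure D2:**
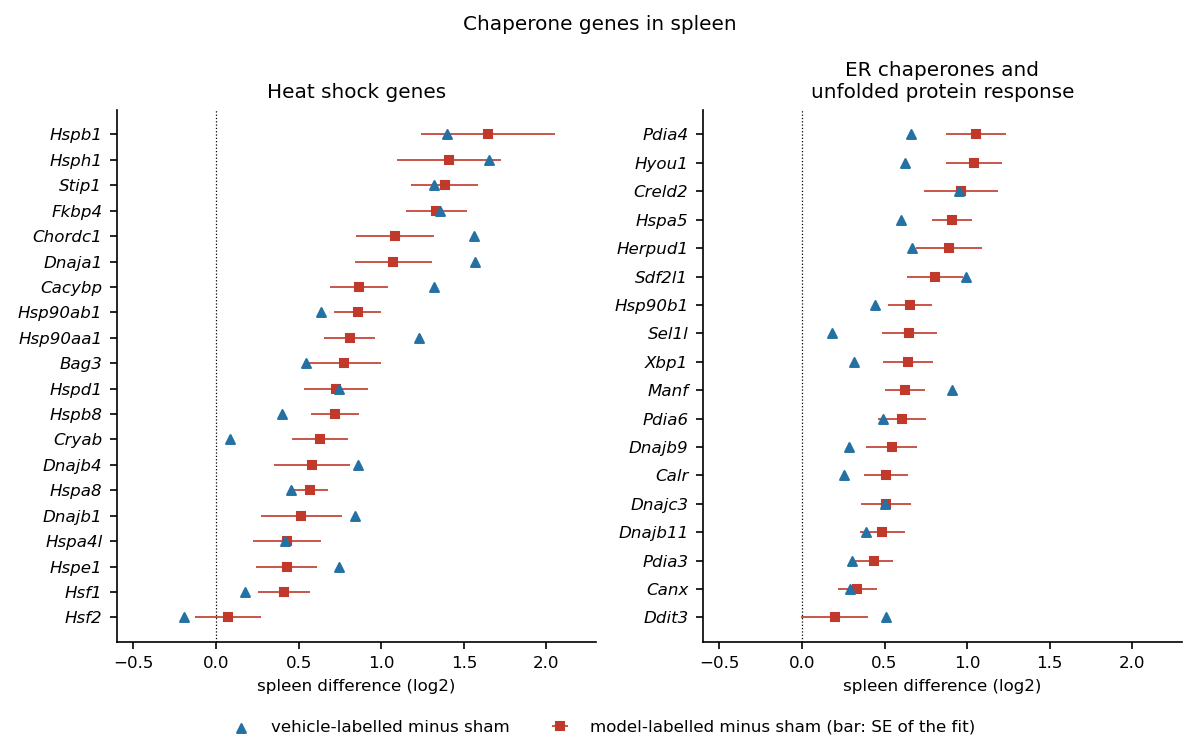
Spleen differences from sham (log2) of the 20 heat shock genes and the 18 ER chaperone and unfolded protein response genes; red squares are model-labelled minus sham with the standard error of the fit, blue triangles vehicle-labelled minus sham, and both share the same 3 sham spleens. The model-labelled differences run from 0.073 (Hsf2) to 1.64 (Hspb1) in the first list and from 0.20 (Ddit3) to 1.05 (Pdia4) in the second.

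Collagen hydroxylation genes lay beside Serpinh1. P4ha1, a catalytic subunit of collagen prolyl 4-hydroxylase, was at 7.02, 7.56 and 7.46 in sham and 8.58, 8.72 and 9.60 in model-labelled spleens. The difference of 1.62 did not pass the adjusted threshold (limma adjusted p = 0.0837), although no sham value reached a model-labelled value. P4ha2, the other subunit measured, differed by 0.55. Both belong to the hypoxia list, of which 20 genes were measured and 0 passed, with a median of 0.15. At an unadjusted p under 0.05, 5 were higher and 1 was lower, against 6.76% and 2.74% of all genes. The other higher members were Ndrg1 (0.58), the hexokinase Hk2 (0.54) and Hif1a itself (0.35), and the lower one was the pyruvate dehydrogenase kinase Pdk1 (-0.33). Among the subunits of the cytosolic chaperonin, Cct3 differed by 0.60 and Tcp1 by 0.46, while the list of proteasome and chaperonin genes as a whole had 2 of 18 higher at an unadjusted p under 0.05 and a median of 0.087.

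Pald1, a phosphatase-domain protein, completed the genes of smallest p in the higher direction. It was at 5.59, 5.69 and 5.44 in sham and 6.06, 6.35 and 6.39 in model-labelled spleens, a difference of 0.69 (limma adjusted p = 0.142).

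The cold-inducible RNA-binding proteins Cirbp and Rbm3, whose messages are known to be high in cool cells and low in warm ones, were lower. Cirbp was at 7.30, 7.22 and 7.37 in sham and 6.61, 6.49 and 6.42 in model-labelled spleens, a difference of -0.79 (limma adjusted p = 0.0918). Rbm3 was at 10.87, 10.63 and 10.80 in sham and 9.93, 9.83 and 10.20 in model-labelled spleens, a difference of -0.78 (limma adjusted p = 0.269). Neither passed, and neither had overlapping groups. Body temperature is not given in the sources used here. Hnrnpd, an AU-rich element binding protein that speeds the decay of messages, was at 9.17, 9.22 and 9.35 in sham and 8.54, 8.52 and 8.38 in model-labelled spleens, a difference of -0.77 (limma adjusted p = 0.0601).

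**Figure D3:**
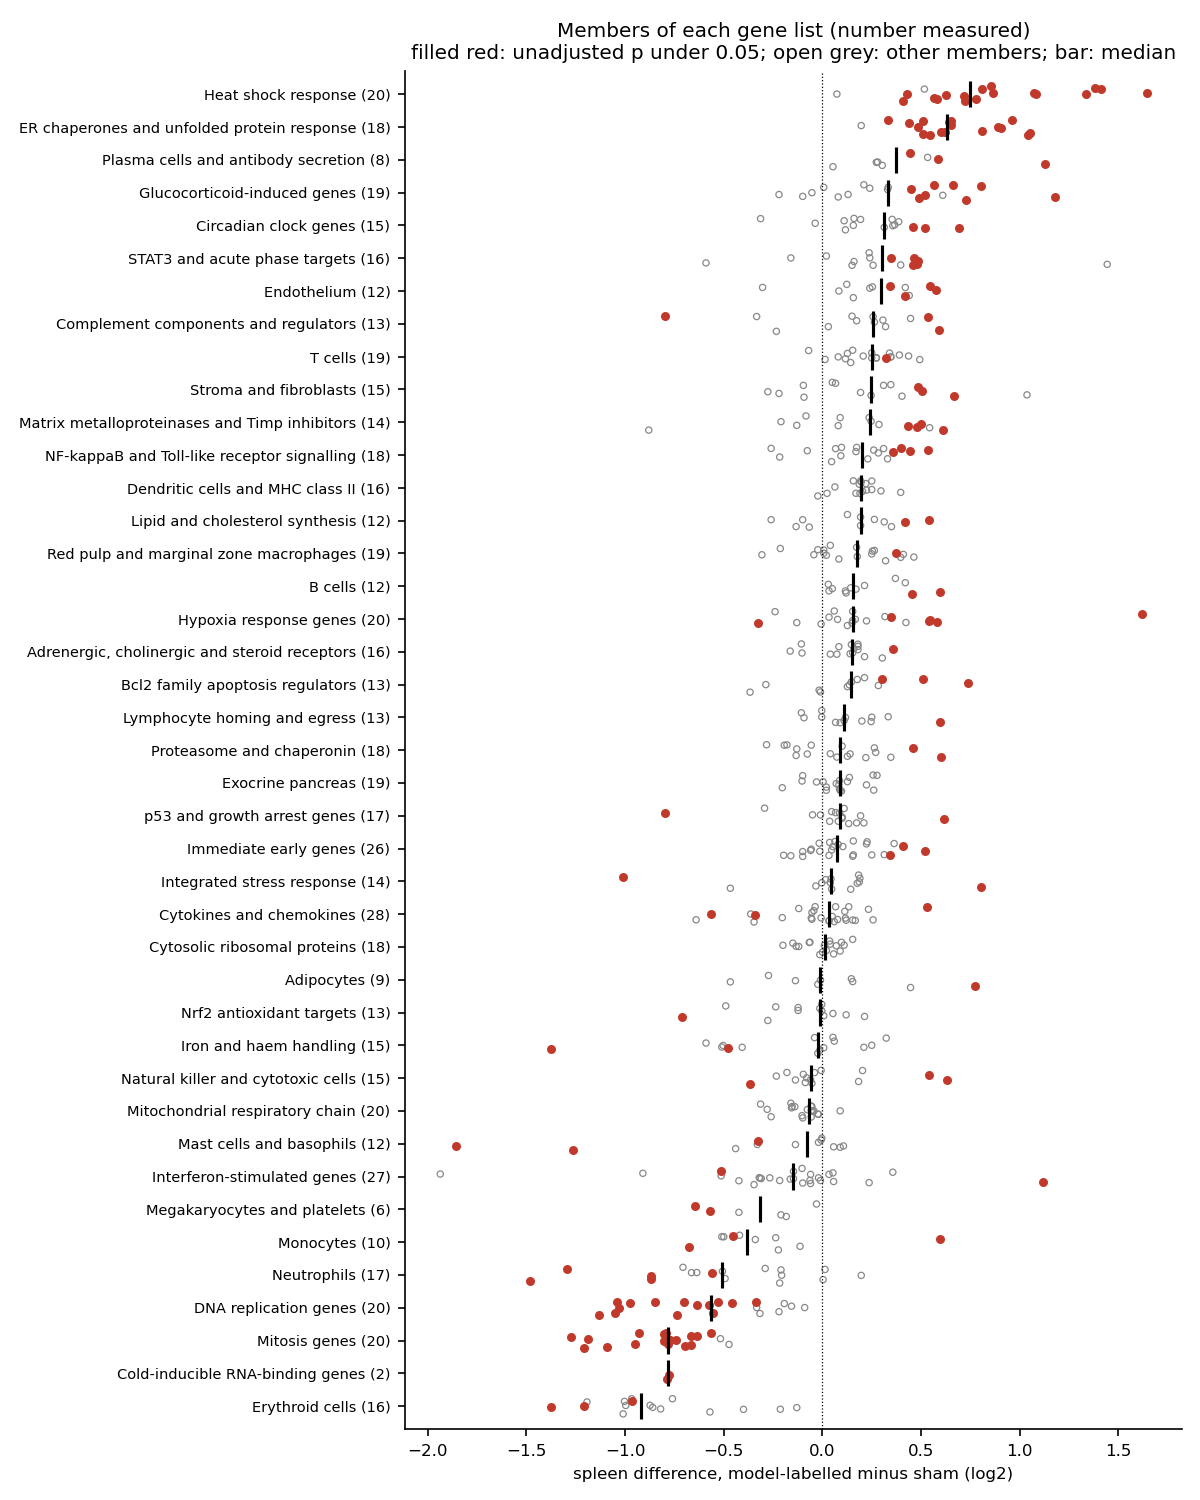
Spleen differences, model-labelled minus sham (log2), of each measured member of the 41 gene lists, ordered by list median; filled red points have an unadjusted p under 0.05, open grey points do not, and black bars are medians, with the number of genes measured in brackets. Heat shock and ER chaperones stand at the top with medians of 0.75 and 0.63, and mitosis, cold-inducible and erythroid genes at the bottom with medians of -0.78, -0.79 and -0.92.

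Genes of dividing cells were lower in the model-labelled spleens. Of 20 mitosis genes measured, 0 passed the adjusted threshold in limma, 18 reached an unadjusted p under 0.05 in the lower direction and 0 in the higher, and 15 had all model-labelled values below all sham values, against 2.74% and 3.96% of all genes. The median difference was -0.78 and all 20 members were below 0. This list too was chosen with earlier results of these data known, so its counts are not independent support. Nusap1, a spindle protein, was at 7.84, 8.05 and 8.55 in sham and 7.17, 6.84 and 6.86 in model-labelled spleens. Its difference was -1.19 (limma adjusted p = 0.180). Cdk1, the kinase that drives entry into mitosis, was at 6.25, 6.67 and 7.14 in sham and 5.78, 5.94 and 5.49 in model-labelled spleens, a difference of -0.95 (limma adjusted p = 0.211). For both genes sham rat 5 was the highest and the groups did not overlap. Ccnb2, a cyclin partner of Cdk1, differed by -1.28, the kinetochore gene Nuf2 by -1.09 and the checkpoint kinase Bub1 by -0.78. The smallest differences were those of Aurkb (-0.47) and Top2a (-0.52), whose groups overlapped through model-labelled rat 2.

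DNA replication genes were lower as well. Of 20 measured, 0 passed in limma and the median was -0.57. At an unadjusted p under 0.05, 14 were lower and 0 higher, against 2.74% and 6.76% of all genes. Model-labelled values lay below all sham values for 12, against 3.96% of all genes. Prim1, the small subunit of DNA primase, was at 7.55, 7.69 and 7.81 in sham and 6.33, 6.75 and 6.81 in model-labelled spleens, a difference of -1.05 (limma adjusted p = 0.069). Tyms, the thymidylate synthase, differed by -1.04, Rrm2, a ribonucleotide reductase subunit, by -0.74, and the cyclins Ccne1 and Ccne2 by -1.03 and -1.13. The helicase subunits Mcm2, Mcm5 and Mcm6 differed by -0.33, -0.19 and -0.32, and their groups overlapped. Other genes of smallest p in the lower direction were also tied to the centrosome, kinetochore or spindle, namely Lrrcc1 (-1.22), Itgb3bp (-0.98) and Hmmr (-1.19). Fam111a, a protease that acts at replication forks, differed by -1.14. None of these 4 passed the adjusted threshold.

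Model-labelled rats differed among themselves in the cell division lists. The mean level of the mitosis genes relative to sham was -0.21, -0.08 and 0.29 in sham spleens, -1.01, -0.45 and -0.997 in model-labelled spleens and -0.30, 0.05 and -0.88 in vehicle-labelled spleens. Model-labelled rat 2 was thus nearer to sham, and vehicle-labelled rat 5 lay with the model-labelled group. Leaving out each array in turn left the mitosis median between -0.94 and -0.63, and between 13 and 20 members at an unadjusted p under 0.05. For replication genes the same range was -0.73 to -0.46, with 6 members without model-labelled rat 1 or sham rat 5, 7 without model-labelled rat 3 and 16 without model-labelled rat 2.

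Red cell precursor genes were lower too. Of 16 erythroid genes measured, 0 passed in limma, and all 16 were below 0 with a median of -0.92. At an unadjusted p under 0.05, 3 were lower, against 2.74% of all genes. Model-labelled values lay below all sham values for 6, against 3.96% of all genes. Ahsp, the chaperone of alpha globin, was at 10.97, 11.36 and 11.45 in sham and 10.04, 10.72 and 9.39 in model-labelled spleens, a difference of -1.21 (limma adjusted p = 0.390). Gata1, the master transcription factor of the lineage, was at 7.62, 8.21 and 8.48 in sham and 7.02, 7.60 and 6.79 in model-labelled spleens, a difference of -0.97 (limma adjusted p = 0.450). Tfrc, the transferrin receptor that feeds iron to erythroblasts and other dividing cells, differed by -1.38, with 9.89, 10.01 and 10.31 in sham and 8.33, 9.63 and 8.12 in model-labelled spleens. In all 3 genes model-labelled rat 2 was the nearest to sham. Hbb, which mature red cells also carry, differed by -0.13, with 13.02, 13.18 and 13.16 in sham and 13.03, 13.15 and 12.79 in model-labelled spleens.

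The mean erythroid level relative to sham was -0.38, 0.18 and 0.20 in sham, -0.90, -0.28 and -1.33 in model-labelled and -0.08, 0.41 and -1.54 in vehicle-labelled spleens. It was thus lowest in vehicle-labelled rat 5 and model-labelled rat 3, and the sham and model-labelled ranges overlapped. The median was -1.18 without model-labelled rat 2 and -0.62 without model-labelled rat 3. The count at an unadjusted p under 0.05 was 0 without model-labelled rat 3, 1 without model-labelled rat 1 or sham rat 5, and 2 without sham rat 4. It was 8 without sham rat 3, 10 without model-labelled rat 2, 11 without vehicle-labelled rat 4 and 13 without vehicle-labelled rat 5. The part of erythroid precursors in the lower mitosis and replication values was not tested.

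Megakaryocyte genes were also lower, with 2 of 6 at an unadjusted p under 0.05, 0 passing in limma and a median of -0.32. Those 2 were the platelet chemokine Ppbp (-0.64) and Nfe2 (-0.57), a transcription factor that erythroid cells share. The megakaryocyte median was -0.17 without model-labelled rat 2, -0.18 without sham rat 4, -0.19 without sham rat 5 and -0.58 without sham rat 3. The neutrophil list had 0 passing in limma, 5 of 17 lower at an unadjusted p under 0.05 and a median of -0.51. The share of all genes lower at that level was 2.74%. Ctsg, a granule protease of immature granulocytes, was at 4.98, 5.45 and 5.88 in sham and 4.53, 4.26 and 4.91 in model-labelled spleens (-0.87), and S100a8 was at 8.82, 9.86 and 9.86 against 8.93, 8.03 and 8.98 (-0.87). The S100a8 groups overlapped through sham rat 3. The list's median was -0.22 without sham rat 4, -0.30 without model-labelled rat 2 and -0.83 without model-labelled rat 3. Mean neutrophil levels relative to sham ran from -0.49 to 0.45 in sham spleens and from -0.89 to -0.21 in model-labelled spleens. Il5ra, the interleukin 5 receptor chain of eosinophils and some B cells, was among the genes of smallest p, at 3.94, 4.54 and 4.80 in sham and 3.20, 3.61 and 3.30 in model-labelled spleens (-1.06, limma adjusted p = 0.172).

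In the mast cell and basophil list, 0 of 12 passed in limma, 3 were lower at an unadjusted p under 0.05 and the median was -0.078. At that level 2.74% of all genes were lower and 6.76% higher. The protease Mcpt9 was at 5.49, 6.85 and 5.68 in sham and 4.94, 3.97 and 5.32 in model-labelled spleens (-1.26). The basophil protease Mcpt8 was at 4.05, 7.64 and 6.60 in sham and 4.90, 4.12 and 3.70 in model-labelled spleens (-1.86). Sham rat 4 was the highest for both, and the Mcpt8 groups overlapped through sham rat 3. Of 10 monocyte markers, 9 were below 0 and 1 above, with 1 higher and 2 lower at an unadjusted p under 0.05. Their median was -0.38, which was -0.17 without sham rat 4 and -0.18 without model-labelled rat 3. The higher member was Cd14, the lipopolysaccharide co-receptor, at 8.79, 8.77 and 8.56 in sham and 9.06, 9.59 and 9.25 in model-labelled spleens (0.59). The calcium-binding protein S100a4 differed by -0.68, with 6.51, 7.13 and 6.86 against 6.34, 6.51 and 5.62.

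Lymphocyte markers were mostly above 0 by small differences. Among all genes 66.0% were above 0, or 53.5% after quantile normalization. The shares of all genes at an unadjusted p under 0.05 were 6.76% higher and 2.74% lower. For B cells, 12 genes were measured and 12 were above 0, 0 passed in limma, 2 were higher at an unadjusted p under 0.05 and the median was 0.16 (0.28 without sham rat 3). The 2 were Fcer2 (CD23, 0.45) and the follicle homing receptor Cxcr5 (0.60). Of 19 T cell markers 18 were above 0, and 1 was higher at an unadjusted p under 0.05, the interleukin 7 receptor Il7r (0.32). Their median was 0.25, or 0.043 without sham rat 5 and 0.38 without sham rat 3. Lef1, a T cell transcription factor, was the next (0.39). Cytotoxic cell markers had 2 of 15 higher and 1 lower, with Il2rb at 0.63 and perforin (Prf1) at 0.54, and a median of -0.06. In the homing and egress list, 1 of 13 was higher (Cxcr5), the chemokine receptor Cxcr4 differed by 0.33 and the median was 0.11, or 0.005 without sham rat 5 and 0.23 without sham rat 3. Dendritic cell and MHC class II genes had 15 of 16 above 0, with 0 on either side at an unadjusted p under 0.05 and a median of 0.20, led by the costimulatory ligand Cd80 (0.40) and the receptor Flt3 (0.30). Red pulp and marginal zone macrophage genes had 1 of 19 higher, the efferocytosis receptor Mertk (0.37), and a median of 0.17 (0.10 without model-labelled rat 3 and 0.09 without sham rat 3), with the marginal zone lectin Siglec1 at 0.46 and overlapping groups. None of these lists had a member past the adjusted threshold.

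Plasma cell and antibody secretion genes had 3 of 8 higher at an unadjusted p under 0.05, against 6.76% of all genes, and a median of 0.37. Derl3, an ER degradation gene that secretory cells express, was at 6.27, 6.19 and 5.79 in sham and 6.73, 7.57 and 7.34 in model-labelled spleens (1.13, limma adjusted p = 0.142). Sdc1 (CD138), a surface marker of plasma cells, was at 7.11, 7.34 and 6.98 in sham and 7.70, 7.88 and 7.61 in model-labelled spleens (0.59). Neither gene had overlapping groups. The mean of the list relative to sham was 0.10, 0.06 and -0.16 in sham and 0.31, 0.48 and 0.56 in model-labelled spleens, and its part in the higher ER chaperones was not tested.

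Vascular and stromal genes leaned higher. Of 12 endothelial genes, 0 passed in limma and the median was 0.30. An unadjusted p under 0.05 in the higher direction was reached by 4, against 6.76% of all genes. The junction protein Esam was at 6.99, 7.04 and 6.90 in sham and 7.28, 7.50 and 7.78 in model-labelled spleens (0.54), and the TGF-beta co-receptor Eng was at 8.76, 8.81 and 8.58 against 9.12, 9.17 and 9.58 (0.57). For both, each model-labelled spleen exceeded each sham spleen. Among 15 stromal genes, 3 were higher and the median was 0.25, with Pdgfra at 0.67 and the collagen gene Col1a2 at 0.48. Lpl, the lipoprotein lipase, was the higher member of the adipocyte list (0.77), while Cfd differed by 0.45 and the median of 9 adipocyte genes was -0.01. Exocrine pancreas genes, a check for adjoining tissue, had 0 of 19 on either side at an unadjusted p under 0.05 and a median of 0.087, with Clps at 0.22 and Cel at 0.28. Their mean relative to sham lay between -0.06 and 0.17 in the sham and model-labelled spleens and was 0.81 in vehicle-labelled rat 2.

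**Figure D4:**
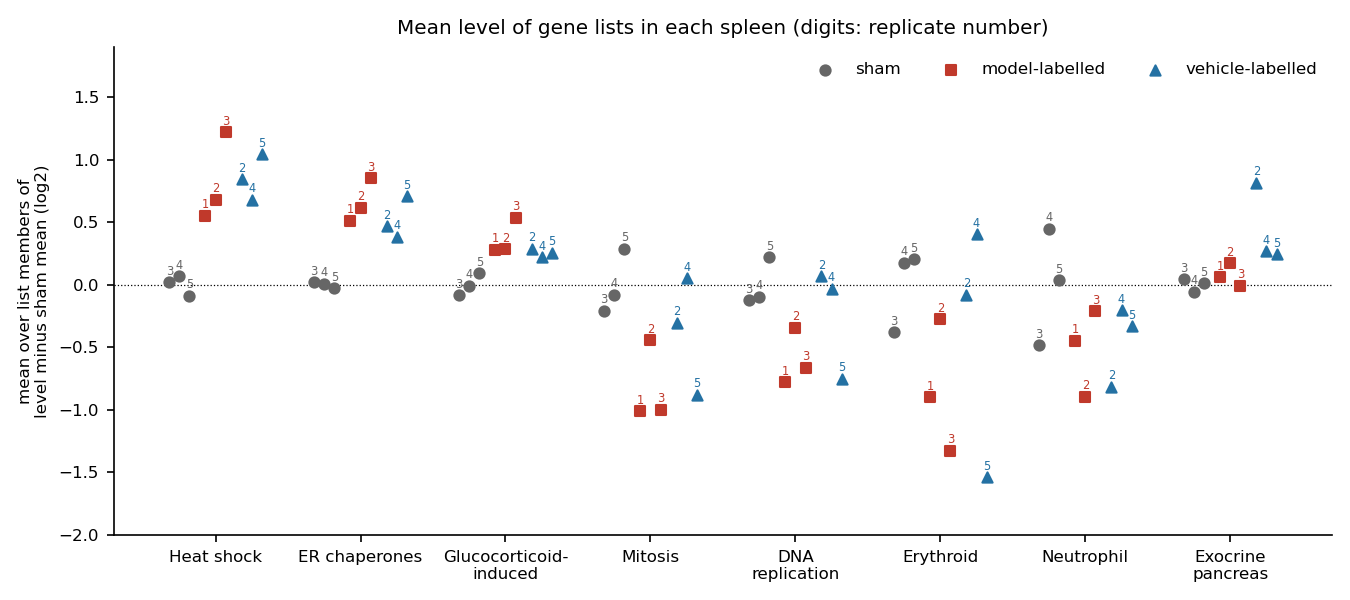
Mean level of the members of 8 gene lists in each of 9 spleens, relative to the mean of the 3 sham spleens (log2); each point is 1 rat and the digit its replicate number. Heat shock and ER chaperone levels of the model-labelled spleens (0.55 to 1.22 and 0.51 to 0.85) lie above all sham spleens, while erythroid levels range from -1.33 to -0.28 in the model-labelled and from -1.54 to 0.41 in the vehicle-labelled spleens.

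Genes that adrenal steroids are known to induce were partly higher. Of 19 measured, 0 passed in limma and the median was 0.33. At an unadjusted p under 0.05, 8 were higher and 0 lower, against 6.76% and 2.74% of all genes. Model-labelled values lay above all sham values for 9, against 13.4% of all genes. Ddit4, an inhibitor of mTORC1, was at 7.70, 7.51 and 7.60 in sham and 8.49, 8.14 and 8.59 in model-labelled spleens (0.80, limma adjusted p = 0.142). Pdk4, a brake on glucose oxidation, was at 5.19, 5.13 and 5.46 in sham and 6.07, 6.17 and 7.08 in model-labelled spleens (1.18, limma adjusted p = 0.180). Both genes were clear of the sham range in each rat. The glucocorticoid-induced leucine zipper Tsc22d3 differed by 0.73, Zbtb16 by 0.57 and the clock-linked factor Klf9 by 0.49. The receptor Nr3c1 differed by 0.18. In the list of adrenergic, cholinergic and steroid receptors 1 of 16 was higher at an unadjusted p under 0.05, the adrenergic receptor Adra2a (0.36), followed by Chrm4 (0.30), and the median was 0.15 (0.09 after quantile normalization and 0.067 without model-labelled rat 2).

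Clock genes had 3 of 15 higher at an unadjusted p under 0.05, where 6.76% of all genes were higher and 2.74% lower. Their median was 0.31, or 0.18 without sham rat 3 and 0.19 without model-labelled rat 3. Per1, which light and glucocorticoids are known to induce, was at 6.08, 6.54 and 6.36 in sham and 6.74, 6.65 and 7.15 in model-labelled spleens (0.52), and the repressor Bhlhe40 differed by 0.46. The p53 list had 1 of 17 higher and 1 lower, namely the BH3-only gene Pmaip1 (0.62) and Gadd45a (-0.80), with a median of 0.087. Among 13 Bcl2 family genes 3 were higher, the pro-apoptotic Bcl2l11 (0.51) and Bid (0.30) and the anti-apoptotic Bcl2 (0.74), and the median was 0.15. No member of these 3 lists passed the adjusted threshold.

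Lists tied to inflammation differed among themselves. Of all genes, 6.76% were higher and 2.74% lower at an unadjusted p under 0.05. In the STAT3 and acute phase list, 0 of 16 passed in limma, 6 were higher and 0 lower at an unadjusted p under 0.05, and the median was 0.30. Il4r, an interleukin 4 receptor chain, was at 8.51, 8.54 and 8.19 in sham and 8.85, 8.89 and 8.94 in model-labelled spleens (0.48). The feedback inhibitors Cish and Socs3 differed by 0.48 and 0.46. For NF-kappaB and Toll-like receptor signalling, 4 of 18 were higher, the median was 0.20, and the lead members were the subunits Nfkb2 (0.53) and Nfkb1 (0.44). Cytokines and chemokines had 1 of 28 higher and 2 lower with a median of 0.033 (-0.025 after quantile normalization and -0.01 after median centring). Il18 was higher, at 7.75, 8.22 and 8.16 in sham and 8.42, 8.46 and 8.84 in model-labelled spleens (0.53), and the interferon-induced Cxcl10 was lower (-0.56). Of 26 immediate early genes 3 were higher, among them Fosl2 (0.52) and Maff (0.41), and the median was 0.072.

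Interferon-stimulated genes were mostly below 0. Of 27 measured, 21 were below 0 and 6 above, while 66.0% of all genes were higher. At an unadjusted p under 0.05 1 was higher and 1 lower, against 6.76% and 2.74% of all genes, and the median was -0.15. Bst2 (tetherin) was at 6.84, 6.72 and 6.12 in sham and 7.55, 7.54 and 7.94 in model-labelled spleens (1.12, limma adjusted p = 0.251), and Ifit3 was at 6.42, 6.43 and 5.65 against 5.91, 5.66 and 5.39 (-0.51). The member of lowest difference, Ifit1 (-1.94), was at 3.79, 9.15 and 9.06 in sham and at 3.74, 9.11 and 3.34 in model-labelled spleens, so that each group held high and low rats. The list's median was -0.39 without sham rat 5, -0.27 without model-labelled rat 1, -0.092 without model-labelled rat 2, -0.043 without model-labelled rat 3 and 0.083 without sham rat 3. Complement genes had 2 of 13 higher and 1 lower with a median of 0.26, or 0.10 without model-labelled rat 3 and 0.17 without sham rat 5. The decay accelerating factor Cd55, which protects cells from complement, was at 7.76, 8.50 and 8.18 in sham and 7.46, 7.40 and 7.19 in model-labelled spleens (-0.80), and the protease C1s was higher (0.59). Matrix metalloproteinases and their inhibitors had 4 of 14 higher, with Mmp19 at 0.61 and Adamts1 at 0.50, and a median of 0.24, or 0.069 without model-labelled rat 3 and 0.15 without sham rat 3.

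Housekeeping and metabolic lists had medians between -0.067 and 0.19, against 0.067 over all genes. An unadjusted p under 0.05 was reached by 6.76% of all genes in the higher and 2.74% in the lower direction. The respiratory chain had 0 of 20 genes at an unadjusted p under 0.05 and a median of -0.067, led by Uqcrq (-0.26) and Cox7a2 (-0.28). Of these genes 19 were below 0 and 1 above, by small differences, while 66.0% of all genes were higher. Model-labelled values lay below all sham values for 3 of them, against 3.96% of all genes. Cytosolic ribosomal proteins had 0 of 18 and a median of 0.015 (-0.028 after median centring), led by Rpl3 (-0.20) and Rplp0 (0.15). Lipid and cholesterol genes had 2 of 12 higher, the fatty acid synthase Fasn (0.42) and the cholesterol exporter Abca1 (0.54), and a median of 0.19, or 0.12 without model-labelled rat 2 and 0.30 without sham rat 3. Antioxidant Nrf2 targets had 1 of 13 lower, the glutathione synthesis gene Gclc (-0.71), with Gsr at -0.28 and a median of -0.013. Iron and haem genes had 2 of 15 lower, Tfrc and the biliverdin reductase Blvra (-0.48), and a median of -0.023.

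The vehicle-labelled spleens, which also came from rats with MCAO, allow a direct test against the model-labelled spleens. In limma, 0 genes passed, and 1872 reached an unadjusted p under 0.05 (12.9%), of which 429 were higher (2.96%) and 1443 lower (9.95%) in vehicle-labelled spleens. Without vehicle-labelled rat 5 the count was 317, and without sham rat 5 it was 2 (Car3 and Tgfb3). It also gave 107 calls when all 27 arrays shared the spread. The comparisons of the model-labelled and vehicle-labelled groups with sham share the sham spleens, so their values are set side by side. The 6 genes past the threshold differed from sham in vehicle-labelled spleens by 1.24 (Serpinh1), 1.32 (Stip1), 1.36 (Fkbp4), 0.60 (Hspa5), 0.36 (Slc39a14) and -0.90 (Cenpu). Slc39a14 was at 6.28, 6.37 and 6.47 in vehicle-labelled spleens, below each model-labelled and above each sham value, and Cenpu at 4.02, 4.60 and 4.03 likewise lay between the groups. For Stip1 the vehicle-labelled minus model-labelled difference was -0.067 with a 95% interval from -0.51 to 0.38, and for Fkbp4 it was 0.023 with an interval from -0.38 to 0.43.

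Heat shock genes had a median of 0.79 against sham in vehicle-labelled spleens and 0.75 in model-labelled spleens, and ER chaperones 0.50 and 0.63. Mitosis genes had -0.32 and -0.78, replication genes -0.25 and -0.57, and erythroid genes -0.57 and -0.92. In the vehicle-labelled minus model-labelled test, 4 of 20 mitosis genes and 6 of 20 replication genes were higher at an unadjusted p under 0.05. Of all genes, 2.96% were higher and 9.95% lower at that level. Lower in vehicle-labelled spleens at that level were 7 of 12 B cell, 6 of 19 T cell, 9 of 19 macrophage, 5 of 12 endothelial and 7 of 16 STAT3 genes. Mean B cell and T cell levels relative to sham were lowest in vehicle-labelled rat 4, at -0.84 and -0.74. They were -0.22 and -0.12 in vehicle-labelled rat 2 and 0.11 and 0.21 in vehicle-labelled rat 5. The model-labelled spleens had 0.17 to 0.27 and 0.21 to 0.27, so the T cell level of vehicle-labelled rat 5 lay within the model-labelled range. At an unadjusted p under 0.05, 7 of 19 exocrine pancreas genes were higher in vehicle-labelled than in model-labelled spleens, against 2.96% of all genes. The part of exocrine pancreas tissue in these differences was not tested.

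White blood cells and brain of the same rats place the spleen values. The fit had no term for the rat, so it did not use this pairing. With the rat as a block, 2 genes passed for spleen minus white blood cells and 186 for spleen minus brain. In the test of the spleen difference minus the white blood cell difference, 0 genes passed in limma and 861 reached an unadjusted p under 0.05 (5.94%), of which 609 were positive (4.20%) and 252 negative (1.74%). Heat shock genes had medians of 0.75 in spleen, 0.60 in white blood cells and 0.24 in brain. The difference in white blood cells was 1.49 for Stip1, 1.08 for Fkbp4 and 0.12 for Serpinh1, and in brain it was 0.22, 0.20 and 0.88. ER chaperones had medians of 0.63, 0.30 and 0.36 in spleen, white blood cells and brain. At an unadjusted p under 0.05, 12 of 20 mitosis genes were more negative in spleen than in white blood cells (1.74% of all genes). At that level 18 of 20 mitosis genes were more negative in spleen than in brain, against 4.60% of all genes. The mitosis medians were -0.09 in white blood cells and 0.12 in brain. Erythroid genes had medians of -0.92 in spleen and 0.50 in white blood cells, and 12 of 16 were more negative in spleen at that level. Cenpu differed by -0.16 in white blood cells and by -0.043 in brain.

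Against brain, the organ of the occlusion, 119 genes passed (0.820%), 19 with a more positive (0.131%) and 100 with a more negative (0.689%) difference in spleen. At an unadjusted p under 0.05 the interaction was positive for 7.21% and negative for 4.60% of genes. The median of 26 immediate early genes was 0.072 in spleen and 1.71 in brain, and 20 of the 26 were more negative in spleen at that level. Npas4, an activity-induced neuronal transcription factor, differed by -0.033 in spleen and 5.23 in brain (interaction -5.27, limma adjusted p = 1.9e-08). Its spleen levels were low, between 3.46 and 4.14, and whether they were above background was not tested. Fos differed by 0.31 and 4.01 (limma adjusted p = 4.9e-05) and Olr1, a receptor for oxidized low-density lipoprotein, by -0.40 and 3.64 (limma adjusted p = 2.9e-04). The chemokines Ccl3 and Ccl2 differed by -0.36 and -0.64 in spleen and by 4.52 and 3.96 in brain (limma adjusted p = 5.3e-04 and 0.00409).

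The 5 largest positive interactions were those of Slco1a4, Ramp2, Tgfb3, Nova1 and Sncg. Slco1a4, Nova1 and Sncg had spleen differences of 0.15, 0.17 and -0.037 and were lower in brain (-1.98, -1.31 and -1.39). Slco1a4 lay between 2.78 and 3.40 in the spleens, and whether it was above background there was not tested. Ramp2, a co-receptor of the adrenomedullin receptor in vessels, was at 7.65, 7.92 and 8.06 in sham and 8.41, 8.53 and 8.70 in model-labelled spleens (0.67), and differed by -1.04 in brain (limma adjusted p = 0.0109). Tgfb3 was at 4.76, 4.97 and 6.10 in sham and 6.49, 6.21 and 7.34 in model-labelled spleens (1.40), with -0.25 in brain (limma adjusted p = 0.0252). Fkbp4 was more positive in spleen than in brain by 1.13 (limma adjusted p = 0.0252), and Cenpu more negative by -1.37 (limma adjusted p = 0.00101).

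**Figure D5:**
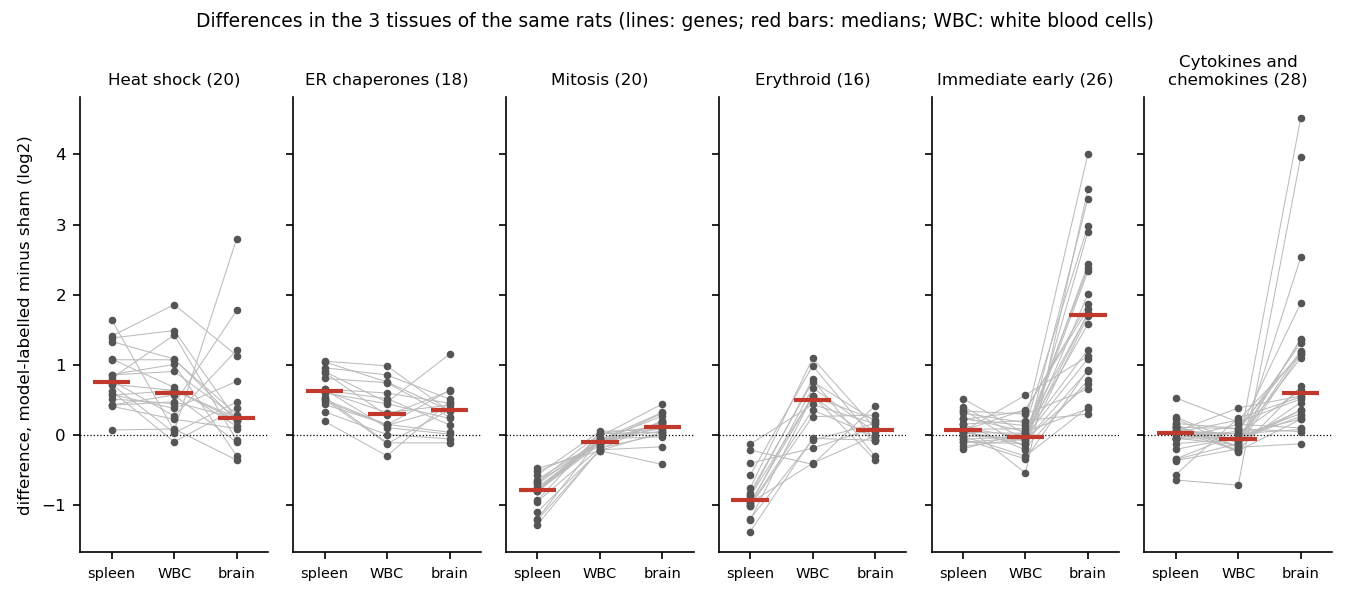
Differences, model-labelled minus sham (log2), of the members of 6 gene lists in spleen, white blood cells (WBC) and brain of the same rats; each grey line joins the values of 1 gene and red bars are list medians. Mitosis genes have medians of -0.78, -0.09 and 0.12 and immediate early genes of 0.072, -0.023 and 1.71 in spleen, white blood cells and brain.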

How the data were processed

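Per the labels, RNA from homogenized spleens was hybridized to Affymetrix arrays, and the submitters' processing notes name RMA, without a version. The deposited table held 27596 probe values for 27 arrays. No label states a scale. A log2 scale was inferred for the deposited intensities from their range (1.53 to 13.49) and the medians of the arrays over all probes (4.96 to 5.31). Whether tissues were normalized together is not given in the sources used here. The annotation gave 1 symbol for 15310 probes, several for 323 and none for 11963. Probes with 1 symbol were used, with the probe of highest mean over the 27 arrays for each of 527 genes that had several, which left 14506 genes. Of the 15310 probes, 15279 matched RefSeq (GRCr8) by Entrez number.

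limma 3.58.1 in R 4.3.3 fitted a mean per group to the 9 spleen arrays (lmFit, eBayes, two-sided, Benjamini-Hochberg over the genes tested, called at an adjusted p under 0.05). Spleen was tested against the other tissues as an interaction over 27 arrays, without a term for the rat. The script was tested on simulated data. Of 728 entries in 41 gene lists, 650 were measured, 9 by a synonym. Members and lists were chosen with earlier results of these data known. Genes named are the called genes, those of smallest p up to 10 a direction, 2 to 4 of smallest p from each list, and the 5 largest called interactions each way (no predicted, olfactory or vomeronasal receptor genes), with some further list members, and the few calls under other settings, picked after their values were seen. Because the number of arrays limits the precision and nothing but the titles says that replicates are separate rats, p-values measure the spread between these samples. Replicate numbers do not pair rats across groups: model-labelled and sham share only number 3, whose deviations from the group means correlated with r = 0.00853, against 0.263, 0.0178 and -0.173 for the pairs with vehicle-labelled rats 2, 4 and 5. Alternatives covered normalization, probe choice, filter, prior, array weights, the arrays in the fit, blocks and thresholds.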

Additional observations from a re-analysis of the deposited data

Results flagged for a closer look

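The difference between model-labelled and sham rats was not the same in spleen and brain for 119 genes by the test of the interaction (limma, adjusted p under 0.05). Among the genes named, the spleen difference exceeded the brain difference for Fkbp4 (1.13), Slco1a4 (2.13), Ramp2 (1.71), Tgfb3 (1.65), Nova1 (1.48) and Sncg (1.35). It was below the brain difference for the division genes Cenpu (-1.37) and Hmmr (-1.20) and for the receptor Il5ra (-1.06). The same held for Cd14 (-1.67), Fosl2 (-1.06), Gadd45a (-1.95), Cd55 (-2.08) and Adamts1 (-1.28), and for the genes with the largest negative interactions, Npas4 (-5.27), Ccl3 (-4.88), Ccl2 (-4.60), Olr1 (-4.04) and Fos (-3.69). Cd55 and Gadd45a had opposite signs in the organs, at -0.80 and -0.80 in spleen and 1.28 and 1.15 in brain.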

How the results depend on the processing

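The reported fit gave 6 model-labelled against sham spleen calls. Quantile normalization left 3 (Cenpu, Hspa5 and Slc39a14), median centring 0, the 40th percentile filter 0 and testing all probes 0. These settings had 1369, 1279, 1075 and 2021 at an unadjusted p under 0.05 in limma. The first 2 of these counts are out of 14506 genes, the third out of the genes the filter left and the last out of 27596 probes. Calls numbered 62 with all 27 arrays in the fit, 14 with a trended robust prior, 123 with array weights, 23 with the 2 groups alone and 13 at an adjusted p under 0.10, and leaving out 1 array gave 0 to 21. No paired analysis was possible because replicate numbers do not mark the same rat and model-labelled and sham share 1 number. A fit with the replicate number as a block gave 1 call (Ubd), none of the 6, and turned Rplp0 to -0.006 and Npas4 to 0.128. Leaving out single arrays took the spleen difference across 0 for Slco1a4 (-0.027 to 0.28), Sncg (-0.13 to 0.06), Npas4 (-0.19 to 0.11) and Ccl3 (-0.72 to 0.0083). Vehicle-labelled minus model-labelled gave 107 calls with 27 arrays, 1 with the 2 groups alone (Car3) and 0 to 317 with 1 array left out. Spleen minus white blood cells gave 1 after quantile normalization (Cenpu), 2 over the 12 arrays of both tissues (Cenpu and Lpl), 2 with the rat as a block (Cenpu and Star), 2 at an adjusted p under 0.10 and 0 to 7 with 1 array left out (7 without sham spleen 3, 1 without sham spleen 5 or sham blood 4). Spleen minus brain gave 186 with the rat as a block, 227 at an adjusted p under 0.10 and 84 to 153 with 1 array left out. The called genes passed in 7 (Serpinh1, Stip1 and Fkbp4), 8 (Slc39a14 and Hspa5) of 19 and 9 (Cenpu) of 18 alternatives. Leaving out arrays from the interactions was added after the data were seen. Of 492 list medians recomputed, 482 moved by less than the spread between replicates. This count is no measure of stability, because most of these settings leave out 1 array. Leaving out a vehicle-labelled array cannot move these medians. Leaving out a sham or model-labelled array can move the group mean of a list only by less than that spread.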

Other observations

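Genes that differed by at least 1 and that no list held were read for their values alone, and the following were chosen after those values were seen. None passed the adjusted threshold in limma. Prg2, Prg3 and Epx encode granule proteins of eosinophils. Prg2, the major basic protein, was at 10.18, 11.13 and 11.32 in sham and at 10.55, 9.02 and 9.90 in model-labelled spleens. Its relative Prg3 was at 6.65, 8.59 and 9.35 against 7.43, 5.72 and 6.18, and the peroxidase Epx at 7.41, 9.18 and 9.48 against 8.17, 6.84 and 7.99. For all 3 genes sham rat 3 lay inside the model-labelled range and model-labelled rat 2 was the lowest. The linker histone H1f1 was at 10.22, 10.23 and 10.44 in sham and 9.31, 9.07 and 8.93 in model-labelled spleens, and Hist1h2af at 10.76, 10.86 and 11.06 against 9.98, 9.75 and 9.89. The groups of both genes were apart.

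Among the higher genes, the arginine synthesis enzyme Ass1 was at 6.80, 7.03 and 7.25 in sham and 8.41, 7.37 and 8.79 in model-labelled spleens. The growth factor gene Tgfb3 was at 4.75, 4.92 and 4.75 in vehicle-labelled spleens, below each model-labelled spleen (6.49, 6.21 and 7.34).

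Ifit1, an interferon-induced RNA-binding protein, stood at 2 separate levels that did not follow the groups. Across the 9 spleens it lay between 3.34 and 3.87 in model-labelled rats 1 and 3, sham rat 3 and vehicle-labelled rat 5, and between 8.73 and 9.80 in the other 5. White blood cell arrays with the same numbers split the same way, at 3.34 and 3.50, 3.30 and 3.13 in those 4 and between 6.07 and 10.11 in the other 5. In brain the same 4 lay between 2.81 and 3.44 and the other 5 between 3.66 and 5.03, a small gap. The spleen difference of -1.94 for Ifit1 rests on 2 low rats of 3 in the model-labelled group against 1 of 3 in sham.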
